A study of Zea mays with 4 samples.

Results

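The maize genes followed here encode sugar transporters of the leaf and were compared between whole leaf tissue and protoplasts. They are the 3 SWEET13 paralogs (SWEET13a, SWEET13b and SWEET13c), SUT1 and STP3. They were picked by gene identifier and make up 5 of the 46430 genes annotated in the count tables. All 4 bulk RNA-seq libraries came from the B73 inbred line, from the distal 6 cm of leaf 2 of V2 seedlings, with no mutant or transgene in any group. In the 2 Leaf libraries, whole segments with all their cell types were ground in liquid nitrogen. In the 2 Protoplast libraries, the RNA came from cells released by digestion of the walls with enzymes for 3.5 h, so these pools hold only cells that the digestion freed. The labels give 6 plants per protoplast pool and the methods give 4 leaves per pool, and a library is therefore a pool, with p-values that measure the spread between pools of 1 experiment.

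Sucrose made in mesophyll cells of the maize leaf moves toward the vein and is loaded into the phloem for export to the rest of the plant. SWEET proteins are uniporters that let sucrose leave a cell down its gradient into the cell wall space, and SUT1 is a proton-coupled symporter that takes sucrose from that space into the phloem, driven by the gradient that plasma membrane proton pumps maintain. The study places SWEET13a, SWEET13b and SWEET13c mRNA in the abaxial bundle sheath cells (abBS) and phloem parenchyma, SUT1 in phloem cells that are probably companion cells and in vascular parenchyma of larger veins, and STP3, which belongs to a family of hexose transporters, among the transcripts enriched in abBS.

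Oligonucleotides made for these genes are printed here because they are the sequences by which the transcripts of the 3 close SWEET13 paralogs were assayed one by one. The forward primers of the coding-region in situ probes are printed 5′ to 3′, with the longest run that SWEET13b and SWEET13c have in common, 14 nt, in capitals.
SWEET13a: gcgactgccgagggc
SWEET13b: aTGAACAAGACGCCGgtg
SWEET13c: TGAACAAGACGCCGct
The SWEET13a primer shared no run longer than 4 nt with either. The forward primers used for qRT-PCR shared runs of 2 to 4 nt among the SWEET13 genes, and those of SUT1 and STP3 are given with them. The primers were compared only with each other, since no sequence of the paralogs was used here.
SWEET13a: cagacgaagagcgtggagta
SWEET13b: cgcgccactaagcatcat
SWEET13c: cattcactttcggcctccta
SUT1: tattgctggcttagtggtccaac
STP3: gacctcggcatctcaggtgg

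In the AGPv4 assembly, SWEET13a (Zm00001d023677) lies on chromosome 10 from 15030181 to 15032801 and SWEET13b (Zm00001d023673) on the same chromosome from 14795157 to 14798022, both on the plus strand. The 2 paralogs are 232158 bp apart, with 2 annotated genes between them. SWEET13c (Zm00001d041067) is on the plus strand of chromosome 3, from 94632377 to 94634331. Each of the 3 genes has 5 exons, and the inner exons have the same lengths in all 3, of 37, 373 and 120 bp, whereas the first exon ranges from 225 to 302 bp and the last from 550 to 696 bp. SUT1 (Zm00001d027854) occupies the minus strand of chromosome 1 from 15301583 to 15306925, with 11 merged exons and 2427 bp of exon in all. STP3 (Zm00001d027268) is also on the minus strand of chromosome 1, from 1034777 to 1037365, with 2 exons. It is the only one of the 5 that another annotated gene overlaps: Zm00001d027267, on the plus strand, covers 1562 of the 2093 exonic bases of STP3 with its own exons, or 74.6%. Whether counting used strand is not given in the sources used here, so counts of STP3 and of this neighbour may include or lose reads of each other.

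Counts in all 4 libraries were available for 18609 genes, the 5 transporters among them, because the Leaf 1 table analysed here ends within chromosome 3. Over these genes the libraries held between 14976340 and 18322950 counts, and levels are given as CPM, a count scaled to a common library total over these genes, after trimmed mean of M-values (TMM) scaling, in which 3 counts equal 0.148 to 0.232 CPM. Markers of the labelled tissues were read in the same libraries. The 5 bundle sheath C4 genes with 4 values (RBCS2, RBCL, PCK1, FBPA and MDH) summed to 49372 and 48421 CPM in leaf and to 2574 and 2644 CPM in protoplasts. The mesophyll C4 genes MDH6 and PDRP1 summed to 8806 and 8794 CPM in leaf and to 11376 and 10188 CPM in protoplasts. No bundle sheath or mesophyll marker was at 0 in any library, and the only marker of companion cells was SUT1 itself.

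All 5 transporters were lower in protoplasts than in leaf, by between 36.1-fold for STP3 and 823-fold for SUT1 in mean CPM. The 2 protoplast libraries lay below the 2 leaf libraries for each of the 5 genes, a pattern found in 42.8% of the 9017 genes tested. A gene was called lower at a log2 fold change below -1 with an adjusted p under 0.05 in edgeR's quasi-likelihood test. By these limits 5 of 5 were called lower, and so were 23.4% of all genes tested. In the 3 complete libraries, with Leaf 2 alone standing for leaf, 5 of 5 were again called lower, against 20.4% of the 23262 genes then tested. The median log2 fold change of the 5 was -5.83, against -0.02 over all genes tested. In RNA from pools of cells, fewer cells of a type and less RNA per cell cannot be told apart, and the bundle sheath markers moved in the same direction as these genes. Their part in the result was not tested.

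**Figure D1:**
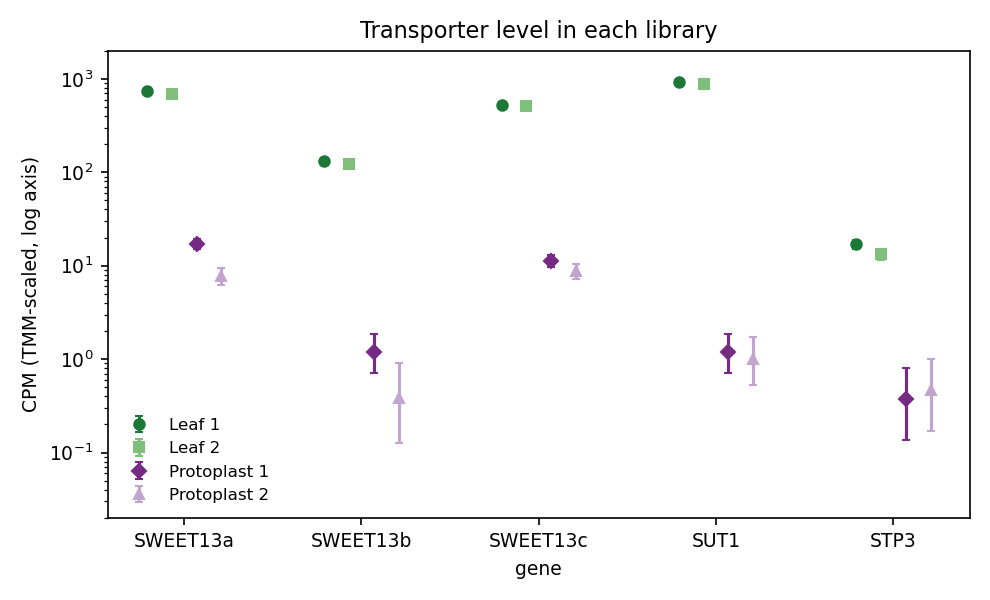
Level of each transporter gene in each library in CPM after TMM scaling, on a log axis, with bars for the exact 95% Poisson interval of the count. Both protoplast libraries sit below both leaf libraries for every gene, and SUT1 shows the widest gap, from 927 and 872 CPM to 1.18 and 1.00 CPM.

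SWEET13a was the most abundant SWEET13 transcript in leaf. Its level was 746 CPM in Leaf 1 and 681 CPM in Leaf 2, from 15140 and 11936 counts, against 17.2 CPM in Protoplast 1 and 7.72 CPM in Protoplast 2, from 276 and 100 counts. Both leaf libraries were high, and the protoplast libraries were low but differed from each other 2.22-fold, with exact 95% Poisson intervals of 15.2 to 19.3 CPM and 6.28 to 9.39 CPM that did not overlap. The log2 fold change of SWEET13a, protoplast over leaf, was -5.83 (standard error 0.39, adjusted p = 4.99e-05 by the edgeR test), and protoplasts held 1.74% of the mean leaf level. It was -6.52 without Protoplast 1 and -5.41 without Protoplast 2.

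SWEET13b had the lowest level of the 3 paralogs and the largest decrease among them. It was counted at 131 CPM in Leaf 1 and 124 CPM in Leaf 2, and at 1.18 CPM in Protoplast 1 and 0.386 CPM in Protoplast 2. The protoplast values rest on 19 and 5 counts, and their exact 95% Poisson intervals of 0.712 to 1.85 CPM and 0.125 to 0.901 CPM overlapped. The log2 fold change of SWEET13b was -7.27 (standard error 0.32, adjusted p = 1.13e-05 by the edgeR test), and 0.616% of the leaf level was left. It was -8.33 without Protoplast 1 and -6.78 without Protoplast 2.

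SWEET13c, on the other chromosome, was close to SWEET13a in its change. Its level was 524 CPM in Leaf 1 and 513 CPM in Leaf 2, and 11.3 CPM in Protoplast 1 and 8.72 CPM in Protoplast 2. The leaf libraries agreed closely and the protoplast intervals, of 9.68 to 13.02 CPM and 7.19 to 10.5 CPM, overlapped. SWEET13c changed by -5.69 on the log2 scale (standard error 0.20, adjusted p = 6.91e-06 by the edgeR test). When the 3 paralogs were summed before the fit, so that the way reads were divided among them did not matter, the log2 fold change was -5.87 (standard error 0.32, adjusted p = 2.18e-05 by the edgeR test). The summed level was 1402 and 1318 CPM in leaf and 29.6 and 16.8 CPM in protoplasts.

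The makeup of the SWEET13 reads was steady between the leaf libraries. SWEET13a contributed 53.3% of the summed SWEET13 counts in Leaf 1 and 51.7% in Leaf 2, SWEET13c 37.4% and 38.9%, and SWEET13b 9.34% and 9.38%. In Protoplast 1 the SWEET13b share was 3.99% (95% Wilson interval 2.57 to 6.15%) and in Protoplast 2 it was 2.29% (0.984 to 5.26%), both below the leaf shares. The log2 ratio of SWEET13b to SWEET13a counts was -2.51 and -2.46 in leaf and -3.86 and -4.32 in protoplasts, a difference of -1.60 (exact two-sided permutation test, p = 0.33, the smallest that 2 libraries against 2 allow).

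The order of SWEET13a and SWEET13c did not hold across the protoplast libraries. SWEET13a led in Protoplast 1 with 58.0% (53.5 to 62.3%) of SWEET13 counts, but in Protoplast 2 it held 45.9% (39.4 to 52.5%) and SWEET13c 51.8% (45.2 to 58.4%), with overlapping intervals. Per kb of exon, there were 81.2 and 87.0 SWEET13c reads for 100 of SWEET13a in leaf, 75.8 in Protoplast 1 and 131 in Protoplast 2. The difference in the log2 ratio of SWEET13c to SWEET13a counts, 0.24, was smaller than the spread between the protoplast libraries (exact two-sided permutation test, p = 1), and it became -0.15 without Protoplast 2. Reads from near-identical stretches may be split between the paralogs, so the shares are less certain than the sum.

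**Figure D2:**
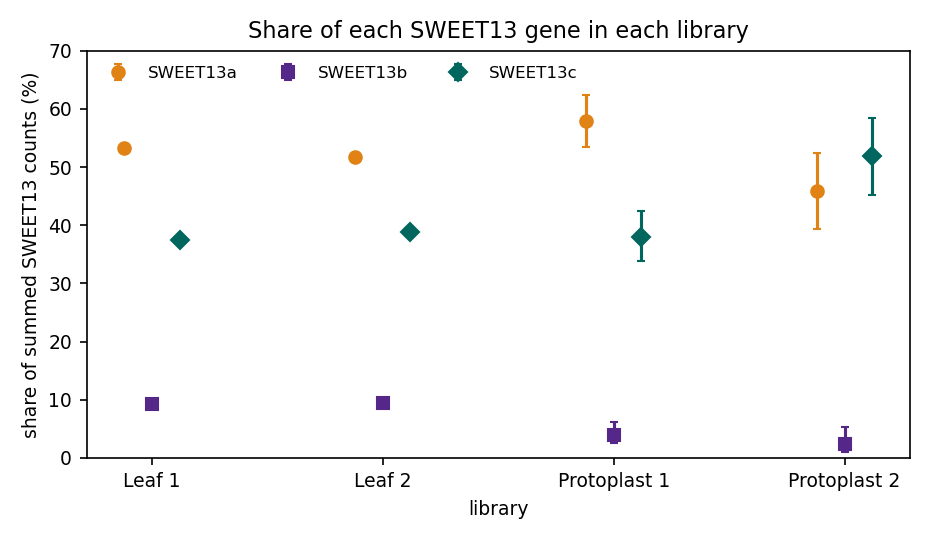
Share of each SWEET13 gene in the summed SWEET13 counts of each library, in percent, with bars for the 95% Wilson interval, which covers counting error only. SWEET13b lies at 9.34% and 9.38% in leaf and at 3.99% and 2.29% in protoplasts, and SWEET13a and SWEET13c change places in Protoplast 2.

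SUT1, the symporter that takes sucrose into the phloem, showed the largest decrease of the 5. Leaf 1 held 18802 SUT1 counts and Leaf 2 held 15269, whereas Protoplast 1 held 19 and Protoplast 2 held 13. These were 927 and 872 CPM in leaf and 1.18 and 1.00 CPM in protoplasts. The leaf libraries were uniformly high, and both protoplast libraries lay above the level of 3 counts but within each other's exact 95% Poisson intervals, of 0.712 to 1.85 CPM and 0.534 to 1.72 CPM. The log2 fold change of SUT1 was -9.67 (standard error 0.22, adjusted p = 5.45e-06 by the edgeR test), and 0.121% of the leaf level was found in protoplasts. DESeq2, another count model, gave a standard error of 0.31 for SUT1. Ordered by fitted log2 fold change, SUT1 was the 44th from the lowest of 9017 genes tested, SWEET13b the 144th, SWEET13a the 270th, SWEET13c the 281st and STP3 the 351st. Genes without any protoplast count hold places in this order by a fitted value only.

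The protoplast pools differed to unequal degrees in the transporters. Protoplast 1 exceeded Protoplast 2 by 1.18-fold in SUT1, 1.29-fold in SWEET13c, 2.22-fold in SWEET13a and 3.06-fold in SWEET13b, whereas in STP3 the ratio of Protoplast 1 to Protoplast 2 was 0.806. Only for SWEET13a were the Poisson intervals of the pools apart, and the low counts of SUT1, SWEET13b and STP3 leave room for larger differences. The summed bundle sheath C4 level was 2574 CPM in Protoplast 1 and 2644 CPM in Protoplast 2, of which RBCL was 1463 and 1596 CPM. Whether bundle sheath content bears on the SWEET13a difference was not tested.

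The ratio of SUT1 to SWEET13 reads within a library does not depend on how libraries are scaled. Per kb of exon there were 38.8 SUT1 reads for 100 summed SWEET13 reads in Leaf 1 and 38.7 in Leaf 2, but 2.36 in Protoplast 1 and 3.46 in Protoplast 2. The log2 ratio of the counts was -0.60 in both leaf libraries and -4.65 and -4.07 in protoplasts. The difference of -3.76 exceeded the spread between replicates, and the exact two-sided permutation test gave p = 0.33, the smallest possible here.

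STP3 was the least abundant of the 5 in leaf, and per kb of exon in each protoplast library as well. It had 343 counts in Leaf 1 and 232 in Leaf 2, or 16.9 and 13.2 CPM, and 6 counts in each protoplast library, or 0.373 and 0.463 CPM. The exact 95% Poisson intervals of the protoplast values, 0.137 to 0.812 CPM and 0.170 to 1.01 CPM, reached below the level of 3 counts, so the size of the decrease is loosely set. The log2 fold change of STP3 was -5.16 (standard error 0.31, adjusted p = 3.08e-05 by the edgeR test). DESeq2, another count model, gave a wider standard error, 0.54, for STP3. Its overlapping neighbour Zm00001d027267 was at 43.8 and 51.3 CPM in leaf and 26.4 and 28.3 CPM in protoplasts, a log2 fold change of -0.80 that was not past the fold change limit. The log2 ratio of STP3 to summed SWEET13 counts was -6.37 and -6.64 in leaf and -6.31 and -5.18 in protoplasts, and the difference of 0.76 was below the gap between the protoplast libraries (exact two-sided permutation test, p = 0.33).

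Levels can be compared between the genes per kb of exon. In leaf, SWEET13a stood first at 467 ± 30.1 CPM per kb (SD, n = 2), followed by SWEET13c at 392 ± 6.15, SUT1 at 371 ± 16.1, SWEET13b at 95.9 ± 3.85 and STP3 at 7.20 ± 1.24. SWEET13c was above SUT1 in both leaf libraries, at 397 against 382 CPM per kb in Leaf 1 and 388 against 359 in Leaf 2, a gap that was not tested, and the length base of STP3 is uncertain because of the overlap. Among all 46430 annotated genes in Leaf 2, SWEET13a ranked 482nd in counts per kb, SWEET13c 546th, SUT1 592nd, SWEET13b 1867th and STP3 12339th. In protoplasts the mean levels were 8.14 ± 4.37 CPM per kb for SWEET13a, 7.56 ± 1.36 for SWEET13c, 0.591 ± 0.424 for SWEET13b, 0.450 ± 0.0519 for SUT1 and 0.200 ± 0.0304 for STP3 (SD, n = 2). There SWEET13a and SWEET13c overlapped, SWEET13b and SUT1 overlapped, and SUT1 was no longer beside SWEET13c.

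**Figure D3:**
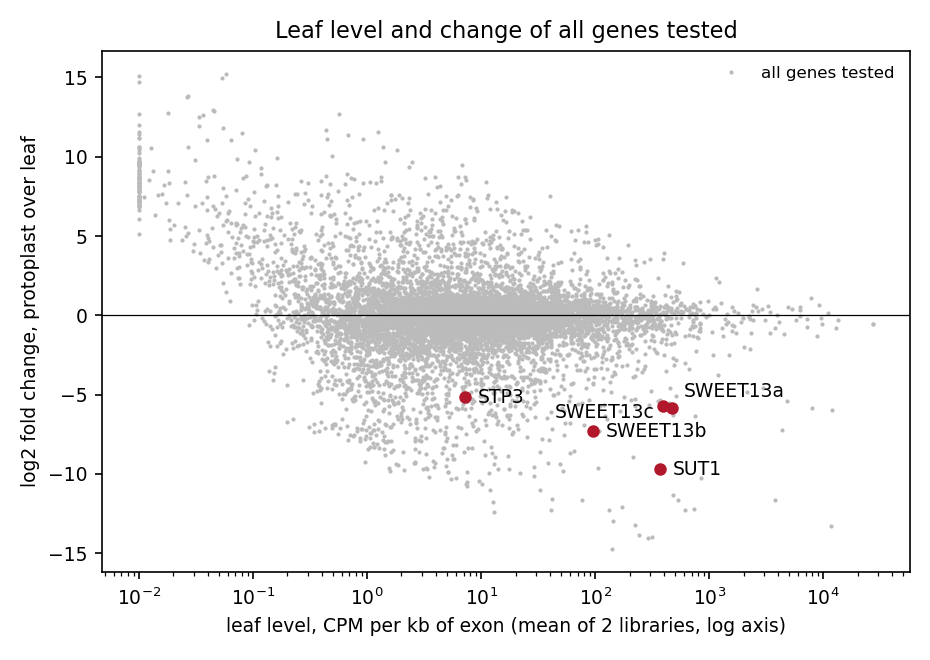
Mean leaf level in CPM per kb of exon (log axis, levels below 0.01 drawn at 0.01) against log2 fold change, protoplast over leaf, for the 9017 genes tested (grey) and the 5 transporters (red). SWEET13a, SWEET13c and SUT1 have similar leaf levels, of 467, 392 and 371 CPM per kb, and log2 fold changes of -5.83, -5.69 and -9.67.

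The transporters were next set against the bundle sheath C4 genes, which belong to the cell layer around the vein. In the same edgeR fit, RBCS2, the Rubisco small subunit, had a log2 fold change of -5.84 and FBPA, an aldolase, one of -5.98, which are close to those of SWEET13a and SWEET13c. PCK1, a decarboxylase of the C4 cycle, stood at -5.41, and RBCL, the Rubisco large subunit, at -2.23, where reads of a plastid copy may be shared. MDH, a malate dehydrogenase, was furthest from the transporters, with a log2 fold change of -0.83 that was not called. SUT1 and SWEET13b had lower values than each of these 5 bundle sheath genes. In the fit of 3 libraries, with 1 leaf library, the 12 listed bundle sheath C4 genes had a median of -5.42. The lowest of them, PRK2 at -7.02 and a further FBPA gene (Zm00001d053015) at -7.01, were close to SWEET13b at -7.25. SUT1 was at -9.64 in that fit. Within libraries, the log2 ratio of summed SWEET13 to summed bundle sheath C4 counts was -5.14 and -5.20 in leaf and -6.44 and -7.30 in protoplasts, a difference of -1.70. That difference was -0.75 without the Rubisco genes RBCS2 and RBCL and -2.88 against the study's bundle sheath list in place of the C4 genes. For SUT1 the same ratio was -5.74 and -5.80 in leaf and -11.09 and -11.36 in protoplasts, a difference of -5.46, with -4.51 and -6.64 under the same changes. For STP3 the difference was -0.94, with -11.51 and -11.84 in leaf and -12.75 and -12.48 in protoplasts, and it was 0.01 without the Rubisco genes and -2.12 against the list. All 3 ratios to the C4 genes were lower in both protoplast libraries than in both leaf libraries. Each exact two-sided permutation test gave p = 0.33, the smallest possible. The sums were made up differently in leaf and protoplasts. RBCL had the most counts of the 5 genes in protoplasts, 23527 and 20672, and FBPA in leaf, 407152 and 365329. MDH, which fell least, stayed in the sum without the Rubisco genes. The size of these differences, and for STP3 the direction, therefore depended on the genes summed in the alternatives run. Summed SWEET13 itself changed by -5.87 in the edgeR fit, against -5.84 for RBCS2 and -5.98 for FBPA. No ratio to either gene alone was computed, so these sums do not settle the sign of the SWEET13 difference.

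The study scaled bundle sheath genes separately, and the transporters were refitted on such a scale. A list of 111 bundle sheath genes of the study, 53 of them counted in all 4 libraries, set the scale. It was chosen on these samples and holds the 3 SWEET13 genes, so it is not independent of them. Log2 fold changes shifted by 1.45, and all 5 transporters were still called lower by the edgeR test, where 9.32% of the 9076 genes then tested were. The log2 fold changes were -4.38 for SWEET13a, -5.82 for SWEET13b, -4.24 for SWEET13c, -8.22 for SUT1 and -3.73 for STP3, with adjusted p between 4.20e-06 and 6.43e-05 from the edgeR test. Of the bundle sheath C4 genes, RBCS2 was at -4.39, FBPA at -4.54, PCK1 at -3.96, RBCL at -0.78 and MDH at 0.61 on this scale. The first 3 of these were close to SWEET13a and SWEET13c here too. The median over all genes tested was 1.45.

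**Figure D4:**
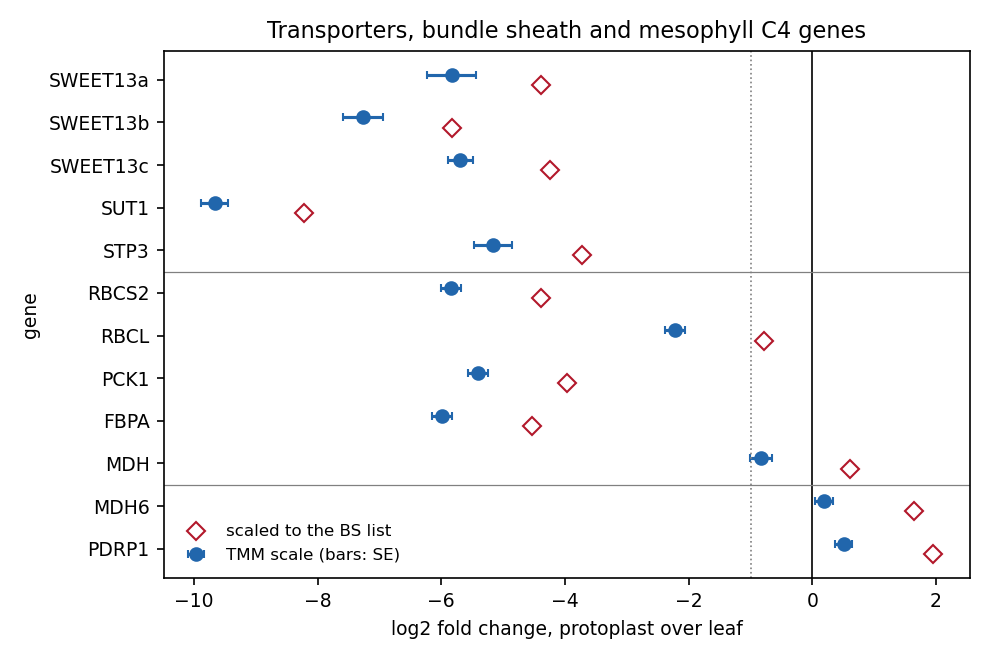
Log2 fold change, protoplast over leaf, of the 5 transporters (top), 5 bundle sheath C4 genes (middle) and 2 mesophyll C4 genes (bottom), on the TMM scale (filled circles, bars are standard errors) and scaled to the BS list (open diamonds). The dotted line marks the limit of -1, and SUT1 has the lowest value on both scales, at -9.67 and -8.22.

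Genes next to the transporters on the chromosomes were mostly close to silent. The 2 genes between SWEET13b and SWEET13a had 13 and 6 counts (Zm00001d023674, which starts 137 bp past the end of SWEET13b on the same strand) and 21 and 26 counts (Zm00001d023675) in Leaf 1 and Leaf 2, and 0 in both protoplast libraries. They share the direction of the SWEET13 genes at leaf levels of 0.343 to 1.48 CPM, and 0 counts in a protoplast library allow up to 0.232 CPM. Zm00001d023674 was too low to be tested, and Zm00001d023675 was called lower (adjusted p = 0.00252 by the edgeR test). The gene on the far side of SWEET13a, Zm00001d023680, was at 4.73 and 3.88 CPM in leaf and 3.36 and 3.24 CPM in protoplasts and was not called. Beside SWEET13c, Zm00001d041069 changed by -1.08 on the log2 scale (standard error 0.22, adjusted p = 0.00541 by the edgeR test) and was called lower. The gene 514 bp from SUT1 on the other strand, Zm00001d027853, was not tested and ran the other way, with 0 and 1 counts in leaf and 9 and 40 in protoplasts.

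Other transport genes that the study lists as enriched in abBS lie outside the part of the genome counted in Leaf 1, so their values come from 3 libraries, in CPM over all annotated genes, and calls on them come only from the edgeR fit of these libraries, where the 1 leaf library has no replicate. All 5 were lower in both protoplast libraries than in Leaf 2, as were 47.3% of the 23262 genes tested there, and 5 of 5 were called lower in that fit, against 20.4% of all genes. UmamiT21a, of a family of amino acid exporters, was at 67.6 CPM in Leaf 2 and at 0.936 and 0.243 CPM in Protoplast 1 and 2. The amino acid permeases AAP45 and AAP56 were at 16.3 and 76.3 CPM in Leaf 2, at 0.196 and 1.502 CPM in Protoplast 1, and at 0.108 and 1.41 CPM in Protoplast 2. UmamiT21a was thus higher in Protoplast 1 than in Protoplast 2, as SWEET13a was. NRT1, of the nitrate and peptide transporter family, was at 19.7 CPM in Leaf 2 and at 0.783 and 0.703 CPM in protoplasts. The proton pump H+ATPase3 stood apart, with 341 CPM in Leaf 2 and 41.8 and 49.1 CPM in protoplasts. On the same scale SWEET13a was at 241 CPM in Leaf 2 and at 6.01 and 2.70 CPM in protoplasts, and SUT1 at 308, 0.413 and 0.351 CPM.

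Plasma membrane proton pumps maintain the gradient that SUT1 uses. Of the 3 pump genes listed, 2 were tested, where 23.4% of all genes tested were called lower. H(+)-ATPase 5 was called lower and proton-exporting ATPase4 was not called. H(+)-ATPase 5 was at 1253 and 1153 CPM in leaf and at 69.5 and 98.4 CPM in protoplasts. The log2 fold change was -3.84 (standard error 0.22, adjusted p = 2.62e-05 by the edgeR test). Proton-exporting ATPase4 was at 418 and 412 CPM in leaf and at 386 and 457 CPM in protoplasts, so the groups overlapped. Its log2 fold change was 0.02 (standard error 0.15) on the TMM scale and 1.47 on the bundle sheath scale. The latter value is close to the median of 1.45 over all genes there, where 5823 of 9076 genes were called higher.

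Other sugar transporters did not share one direction. Of 9 listed genes, 4 were tested, and 2 were called higher, 1 lower and 1 was not called, where 19.6% of all genes tested were called higher. Their median log2 fold change was 0.55, against -0.02 over all genes. SWEET16, whose Arabidopsis relatives move sugars across the vacuolar membrane, had 24 and 23 counts in leaf and 6111 and 6085 in protoplasts, or 1.18 and 1.31 CPM against 380 and 470 CPM. No value of SWEET16 in leaf came near those in protoplasts, and its log2 fold change was 8.41 (standard error 0.23, adjusted p = 5.45e-06 by the edgeR test). Sugar transport protein 13, related to a hexose-proton symporter of Arabidopsis, rose from 421 and 397 CPM to 1227 and 1873 CPM, which was 1.92 on the log2 scale (standard error 0.23, adjusted p = 0.000542 by the edgeR test). Putative polyol transporter 1 (Zm00001d028151) fell by 2.81 on the log2 scale, and Carbohydrate transporter (Zm00001d040422) had a log2 fold change of -0.82, which is inside the fold change limit. On the bundle sheath scale the last of these had a positive value, 0.63, below the median of 1.45 over all genes there. In the fit of 3 libraries 3 of the 9 were called lower and 4 higher, against 20.4% and 18.5% of all genes. Of the 5 genes known from Leaf 2 alone, monosaccharide transporter1 was at 18.4 CPM in Leaf 2 and at 1.52 and 0.865 CPM in protoplasts. SWEET17b and Sugar carrier protein C were also lower in both protoplast libraries than in Leaf 2, and Sugar transporter ERD6-like 3 and the polyol transporter Zm00001d021935 were higher in both.

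**Figure D5:**
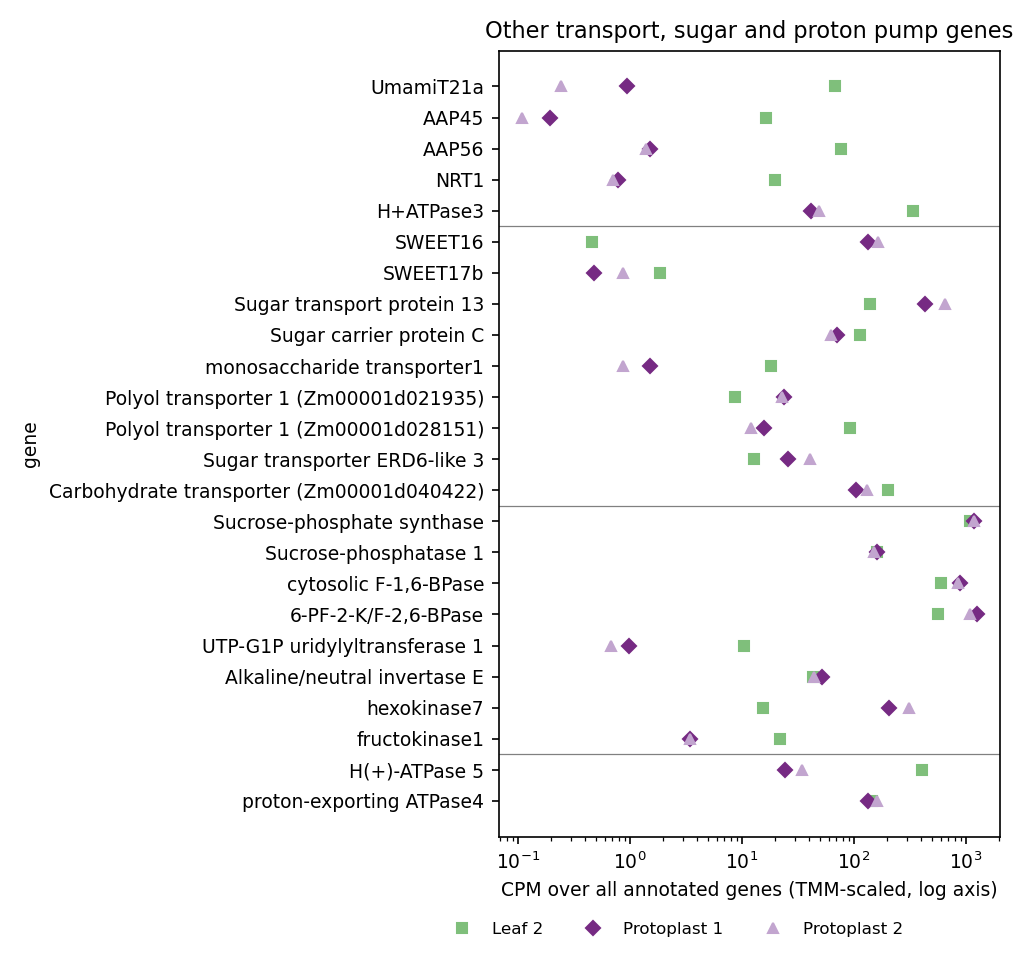
CPM over all annotated genes (TMM-scaled, log axis) in Leaf 2 and both protoplast libraries for other abBS transport genes, other sugar transporters, sucrose metabolism and proton pumps, from top to bottom, with 1 leaf library and therefore no error. The 5 abBS transport genes lie to the left in protoplasts, SWEET16 lies to the right (0.465 CPM against 133 and 165 CPM), and sucrose-phosphate synthase is at 1089, 1186 and 1176 CPM.

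Genes of sucrose metabolism did not share a direction. In the fit of 3 libraries, the 8 listed genes had a median log2 fold change of 0.13, against -0.04 over all genes tested. Their values ran from -3.66 for UTP-glucose-1-phosphate uridylyltransferase 1 to 4.06 for hexokinase7. With both leaf libraries 1 of the 8 was tested, the cytosolic fructose-1,6-bisphosphatase, an enzyme of sucrose synthesis. It was at 1654 and 1718 CPM in leaf and at 2545 and 2417 CPM in protoplasts, and its log2 fold change of 0.56 was below the limit. On the bundle sheath scale it was 2.01 and called higher, as were 5823 of 9076 genes, with a median of 1.45 over all genes. Sucrose-phosphate synthase, the enzyme that commits hexose phosphates to sucrose, was at 1089 CPM in Leaf 2 and at 1186 and 1176 CPM in protoplasts. Sucrose-phosphatase 1, which completes the synthesis, was at 161 CPM in Leaf 2 and at 162 and 152 CPM in protoplasts. The gene listed as UTP-glucose-1-phosphate uridylyltransferase 1, an enzyme that makes UDP-glucose, was lower, at 10.6 CPM in Leaf 2 and 0.979 and 0.676 CPM in protoplasts. The gene for 6-phosphofructo-2-kinase/fructose-2,6-bisphosphatase, which sets the level of a regulator of sucrose synthesis, was at 564 CPM in Leaf 2 and 1263 and 1090 CPM in protoplasts. Among genes of sugar cleavage and use, Alkaline/neutral invertase E was at 43.5 CPM in Leaf 2 and 52.3 and 44.3 CPM in protoplasts, hexokinase7 at 15.5 CPM in Leaf 2 and 206 and 312 CPM in protoplasts, and fructokinase1 at 22.0 CPM in Leaf 2 and 3.46 and 3.43 CPM in protoplasts.

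Plasmodesmata are the channels through which sucrose passes between cells before it meets the transporters. Of 5 listed genes for callose and callose-binding proteins, 2 were tested and 1 was called lower, where 23.4% of all genes tested were. The callose-binding gene PDCB2 (Zm00001d029539) was called lower at -2.19 on the log2 scale (standard error 0.61, adjusted p = 0.0198 by the edgeR test), from 58 and 70 counts in leaf and 4 and 17 in protoplasts. On the bundle sheath scale it was not called (log2 fold change -0.76). Callose synthase 10 had a log2 fold change of 0.58, inside the limit. On the bundle sheath scale it was 2.03 and called higher, as were 5823 of 9076 genes, with a median of 1.45 over all genes. Of the others, PDCB2 (Zm00001d043361) had 105 counts in Leaf 2 and 0 in both protoplast libraries, and PDCB5 (Zm00001d047399) had 35 counts in Leaf 2 and 1 in both protoplast libraries. PDCB5 (Zm00001d022242) was at 29.2 CPM in Leaf 2 and 24.2 and 21.9 CPM in protoplasts. In the fit of 3 libraries its log2 fold change was -0.34, and that of PDCB5 (Zm00001d047399) was -4.72. The median of the 5 genes in that fit was -2.42, against -0.04 over all genes.

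The genes most like the transporters over the 4 libraries were found by the Euclidean distance between log2 CPM values, with a pseudocount of 0.5 and each gene centred on its own mean, among 6553 genes with a mean of at least 5 CPM. For summed SWEET13 the nearest was Zm00001d002799, at a distance of 0.13, with 220 and 214 CPM in leaf and 4.35 and 2.01 CPM in protoplasts. Protoplast 1 exceeded Protoplast 2 in this gene, which its choice by distance to summed SWEET13 favoured. The next were Zm00001d034015, at 0.20, and Zm00001d004762, at 0.21. For STP3 the nearest genes were Zm00001d002642, at a distance of 0.13, Zm00001d028241, at 0.16, and Zm00001d023596, at 0.17. SUT1 had no such close match. Its nearest gene, Zm00001d042420, was at a distance of 0.50 with 209 and 193 CPM in leaf and no counts in protoplasts. The others were Zm00001d039786, at 0.79, with 763 and 668 CPM in leaf and 0.933 and 0.154 CPM in protoplasts, and Zm00001d033496, named Nas3 (nicotianamine synthase 3), at 1.06. The distance rests on 4 libraries in 2 groups, and the pseudocount of 0.5 shortens decreases that end at low CPM. Near genes therefore need not share the fitted decrease. In the order given, their log2 fold changes were -14.7, -10.3 and -12.3 for SUT1, itself at -9.67. They were -5.85, -4.22 and -5.52 for STP3, itself at -5.16, and -6.06, -6.19 and -6.62 for summed SWEET13, itself at -5.87.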

How the data were processed

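The authors trimmed paired reads of 150 nt with TrimGalore 0.6.5, aligned them with STAR 2.5.1b to the AGPv4 B73 genome and counted them per gene with featureCounts 2.0.1. The deposited values are raw counts per gene, 1 table per library, and all 4 libraries shared a lane. Settings for strand and multiply mapped reads are not given in the sources used here.

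The Leaf 1 table stops within chromosome 3 and has 10 damaged lines. Its counts were used where 6 annotation fields matched the other tables, for 18609 of 46430 genes. Total counts of the complete libraries lay between 41792981 and 47061988. For genes without Leaf 1, values are given, and calls come only from a fit of the 3 complete libraries.

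The analysis used R 4.3.3 with edgeR 4.0.16: filterByExpr, TMM factors, and the robust quasi-likelihood test, checked on simulated data. P-values were adjusted by Benjamini-Hochberg over the 9017 genes tested. Called genes had an adjusted p under 0.05 and changed by more than 1 on the log2 scale. The standard error of a change is its size over the root of its F statistic. Standard errors from DESeq2 were 0.54 for STP3, 0.31 for SUT1, 0.37 for SWEET13b, 0.21 for SWEET13c and 0.29 for SWEET13a. Only for SWEET13a was the DESeq2 value the smaller, so the edgeR errors may be too narrow at low counts. Intervals and floors of 3 counts cover counting error only. Alternatives included limma 3.58.1 (voom) and DESeq2 1.42.0.

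The transporters, the gene lists and the tests were chosen with earlier results of these data known. Genes named are the 5 transporters, genes of the lists (from the paper's tables), neighbours on the chromosome, and the 3 genes nearest in pattern to summed SWEET13, SUT1 and STP3. Primer sequences come from the study's supplementary tables. The reference gene table matched 0 of 5 transporters.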

Additional observations from a re-analysis of the deposited data

How the results depend on the processing

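All 5 transporters were called lower in every alternative in which they were tested, among limma-voom, DESeq2, 3 other scalings, no filter, single libraries left out and the 3 complete libraries over all genes. Genes called lower in all numbered 2121 of 9017 in limma-voom, 2025 of 10520 in DESeq2 and 2350 of 12443 with no filter. With at least 10 counts required in every library, 3 were tested and 3 called, where 1295 of 7432 genes were called lower. SWEET13b and STP3 were not tested there, because they have fewer protoplast counts. Scaling to the BS list called 6669 genes, 5823 of them higher, in place of 3880, of which 1770 were higher. Scaling by totals alone put the median change of all genes at -0.31 (log2) and called 1458 genes higher and 2596 lower. The 3 complete libraries called 9047 of 23262 genes.

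Leaving out 1 library at a time gave 3619 to 4094 called genes, always 5 transporters called lower, and log2 fold changes of -6.52 to -5.41 for SWEET13a, -8.33 to -6.78 for SWEET13b, -5.89 to -5.56 for SWEET13c, -9.79 to -9.60 for SUT1, -5.37 to -4.97 for STP3 and -6.36 to -5.56 for summed SWEET13. The lone library of a group is then assumed to vary like the other group. Without Protoplast 1, SWEET13a was at -6.52 and SWEET13b at -8.33, and without Protoplast 2 at -5.41 and -6.78. The ratio differences ranged from -2.13 to -1.27 for summed SWEET13, -5.60 to -5.32 for SUT1 and -1.10 to -0.78 for STP3 against bundle sheath C4 counts, from -1.84 to -1.37 for SWEET13b to SWEET13a, -0.15 to 0.64 for SWEET13c to SWEET13a, -4.05 to -3.47 for SUT1 to SWEET13 and 0.19 to 1.32 for STP3 to SWEET13. Without RBCS2 and RBCL the differences against bundle sheath C4 counts were -0.75 for summed SWEET13 and -4.51 for SUT1, and against the BS list they were -2.88, -6.64 and, for STP3, -2.12. The direction turned in 2 cases: SWEET13c to SWEET13a was -0.15 without Protoplast 2, and STP3 to bundle sheath C4 was 0.0053 without RBCS2 and RBCL. For both, the cause was not tested.

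Whether same-numbered libraries came from matched plants is not given. The methods took whole leaf tissue from sibling plants at the harvest for protoplasts. Deviations of same-numbered libraries correlated at -0.21 over 9017 genes. With the replicate number as a block, 3760 genes were called, and with the pairs crossed, an alternative added after seeing the data, 3902. The block gave log2 fold changes of -5.93 for SWEET13a, -7.31 for SWEET13b, -5.70 for SWEET13c, -9.67 for SUT1, -5.16 for STP3 and -5.92 for summed SWEET13, with 5 transporters called lower in either pairing. Paired, the mean ratio differences were those given, -1.70, -5.46, -0.94, -1.60, 0.24, -3.76 and 0.76, with an exact p of 0.5 at best. At this depth the protoplast levels of STP3 and SWEET13b rest on 5 to 19 counts.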
